A study of Mus musculus with 8 samples.

Results

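The nuclear-encoded subunits of the mitochondrial respiratory chain were taken by gene symbol as the genes whose names begin with Ndufa, Ndufb, Ndufc, Ndufs, Ndufv, Uqcr, Cox4 to Cox8 or Atp5, together with Sdha, Sdhb, Sdhc, Sdhd and Cyc1 and without the Ndufaf assembly factors. The rule found 89 of the 19348 genes of the count tables, of which 41 were assigned to complex I, 4 to complex II, 9 to complex III, 18 to complex IV and 17 to complex V. RNA was sequenced from the liver and the epididymal white adipose tissue (eWAT) of male C57BL/6 mice aged 12 weeks that had fasted for 16 h. In each tissue 2 libraries were labelled Crtc1-/-, from mice in which the coactivator gene Crtc1 was deleted in the whole body with the CRISPR/Cas9 system, and 2 were labelled Crtc1+/+, from mice with the intact gene. Each library was made from a piece of bulk tissue, and the strain, sex, age and fasting were shared by all 4 groups. Replicates 1 and 2 of a group are different mice, and values below are given in that order. By the study's methods liver and eWAT were taken from the same mice, which would make 4 mice behind the 8 libraries, but the labels do not say which libraries share a mouse.

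The respiratory chain passes electrons from NADH (complex I) and succinate (complex II) through ubiquinone to complex III, on to cytochrome c, and through complex IV to oxygen, and the proton gradient that results drives ATP synthesis by complex V. Most of its subunits are encoded in the nucleus, while a small set of core subunits is encoded in the mitochondrial genome and was not analysed here. Several complex IV subunits exist as paired isoforms, a ubiquitous form and a form restricted to tissues such as heart and skeletal muscle, lung or testis, and brown fat is known for a high content of complexes I to IV.

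Total counts ranged from 16560085 to 19721481 per library. Crtc1 itself was not lower in libraries labelled Crtc1-/-: it measured 58.5 and 33.6 CPM (counts scaled to a common library size) there and 32.6 and 33.7 CPM in the Crtc1+/+ libraries of eWAT, and 22.1 and 18.0 against 11.7 and 9.86 CPM in liver. The counts are per gene and do not resolve the deleted exons, so groups are named by their labels throughout. The eWAT libraries stood apart within their groups. In the eWAT library labelled Crtc1-/- replicate 2, the 12 hepatocyte markers made up 10.3% of counts, against 0.11% in replicate 1, 0.626% and 0.0732% in the Crtc1+/+ eWAT libraries and 19.3% to 23.5% in liver. Both Crtc1+/+ eWAT libraries held 7.54% and 8.8% of counts in 13 epididymis markers, against 0.00224% and 0.00111% in libraries labelled Crtc1-/-, where 5 and 4 of those markers were at 0. The 12 adipocyte markers ran the other way, at 4.82% and 2.34% in libraries labelled Crtc1-/- and 0.28% and 0.445% in the Crtc1+/+ libraries, with none at 0. The label of fat tissue was therefore less well matched by the Crtc1+/+ libraries, and the part of this difference, or of the liver markers, in the results for the subunits was not tested.

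Promoters of the subunits are shown first for the members on which the results turn: Ndufs5 and Uqcr10, which passed the test in eWAT, Sdha and Sdhd, whose fold changes had opposite signs in the 2 tissues, and Cox6a1 and Cox8b, a ubiquitous and a muscle-type complex IV subunit. Ndufa4l2, which also passed the test in eWAT, had no promoter sequence available. The sequences are the 250 bases before the annotated start, 5′ to 3′ on the strand of the gene, from RefSeq on GRCm38.p6, and all 6 genes lie on the minus strand. They span chr4:123718187-123718436 (Ndufs5), chr11:4704345-4704594 (Uqcr10), chr13:74350241-74350490 (Sdha), chr9:50603850-50604099 (Sdhd), chr5:115348959-115349208 (Cox6a1) and chr7:140900447-140900696 (Cox8b). Capitals mark GCGC followed by any base and TGCGC, on either strand, the binding motif of NRF1, a regulator known for its action on respiratory chain genes.
Ndufs5: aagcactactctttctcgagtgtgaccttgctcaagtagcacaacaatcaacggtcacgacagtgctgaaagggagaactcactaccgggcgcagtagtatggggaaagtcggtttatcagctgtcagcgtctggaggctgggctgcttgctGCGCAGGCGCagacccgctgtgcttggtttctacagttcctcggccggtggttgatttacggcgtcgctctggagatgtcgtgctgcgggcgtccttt
Uqcr10: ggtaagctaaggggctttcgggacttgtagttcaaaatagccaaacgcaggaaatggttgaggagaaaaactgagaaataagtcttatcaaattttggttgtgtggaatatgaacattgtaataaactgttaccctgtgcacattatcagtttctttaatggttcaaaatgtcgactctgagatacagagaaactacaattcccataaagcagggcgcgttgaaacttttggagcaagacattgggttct
Sdha: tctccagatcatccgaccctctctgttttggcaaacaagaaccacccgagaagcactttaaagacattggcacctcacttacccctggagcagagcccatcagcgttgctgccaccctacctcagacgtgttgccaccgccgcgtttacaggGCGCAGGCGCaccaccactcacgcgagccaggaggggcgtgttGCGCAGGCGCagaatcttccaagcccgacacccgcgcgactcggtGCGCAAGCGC
Sdhd: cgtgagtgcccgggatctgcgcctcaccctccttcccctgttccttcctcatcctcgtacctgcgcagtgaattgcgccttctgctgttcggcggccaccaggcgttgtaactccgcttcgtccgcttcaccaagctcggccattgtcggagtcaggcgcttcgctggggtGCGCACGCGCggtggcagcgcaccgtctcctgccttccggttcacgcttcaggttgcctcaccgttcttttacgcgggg
Cox6a1: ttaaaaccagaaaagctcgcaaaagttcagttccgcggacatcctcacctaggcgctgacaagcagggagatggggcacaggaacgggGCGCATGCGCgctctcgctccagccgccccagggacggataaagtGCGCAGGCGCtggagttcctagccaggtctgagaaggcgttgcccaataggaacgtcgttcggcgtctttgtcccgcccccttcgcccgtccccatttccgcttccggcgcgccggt
Cox8b: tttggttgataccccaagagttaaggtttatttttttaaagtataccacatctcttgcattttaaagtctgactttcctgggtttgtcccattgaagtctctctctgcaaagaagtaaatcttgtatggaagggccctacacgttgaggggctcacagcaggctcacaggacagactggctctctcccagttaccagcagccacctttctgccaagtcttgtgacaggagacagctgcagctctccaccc
The motif stood once before the start in Ndufs5, 98 bases upstream, and in Sdhd, 79 bases upstream. Sdha held it 3 times, at 98, 55 and 10 bases upstream, and Cox6a1 at 162 and 117 bases. No listed motif lay in the Uqcr10 window, and in Cox8b the only match, TATAAA, began 4 bases after the start.

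A promoter window of 300 bases, 250 before and 50 after the start, was found for 70 of the 89 subunits and for 15154 genes of the tables. The NRF1 letters were in 16 of the 70 (22.9%), against 7.6% of all windows. Complex V held them in 5 of 15 and complex I in 7 of 34, while complex IV held them in 1 of 13. The YY1 letters AAGATGGC were in 9 windows (12.9%, against 3.54% of all), of which 7 belonged to complex I and 2 to complex V. The letters TCAAGGTCA of the estrogen-related receptors, known for their action on oxidative metabolism, were in only Sdhd and Atp5g3, named after their values were seen (2.86%, against 0.317%). The ETS letters CCGGAAGT (7.14%, against 6.04%) and the TATA letters TATAAA (10%, against 9.94%) were in about the same share of the subunits as of all windows. All motifs were searched on both strands, and none of these motifs was tested against the expression values.

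Summed over the 89 members, the subunits took 1.94% and 1.75% of counts in the eWAT libraries labelled Crtc1-/- and 1.42% and 1.12% in the Crtc1+/+ libraries. In liver the values were 1.82% and 2.04% against 1.61% and 1.43%. The groups did not overlap in either tissue, but an exact two-sided permutation test of 2 libraries against 2 cannot go below p = 0.333. Per transcript length, as FPKM, complex II was the part of the chain that differed most between the eWAT groups in proportion: it made up 0.0853% and 0.0875% of all FPKM in libraries labelled Crtc1-/- and 0.0467% and 0.0459% in the Crtc1+/+ libraries. In liver the same sum was 0.0957% and 0.0818% against 0.0901% and 0.0978%, and these groups overlapped. Complex III made up 0.479% and 0.454% against 0.288% and 0.239% in eWAT, and 0.477% and 0.565% against 0.413% and 0.36% in liver. Complexes I, IV and V likewise lay higher in both libraries labelled Crtc1-/- than in both Crtc1+/+ libraries, in both tissues. In bulk samples, fewer cells of a type and less RNA per cell cannot be told apart.

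**Figure D1:**
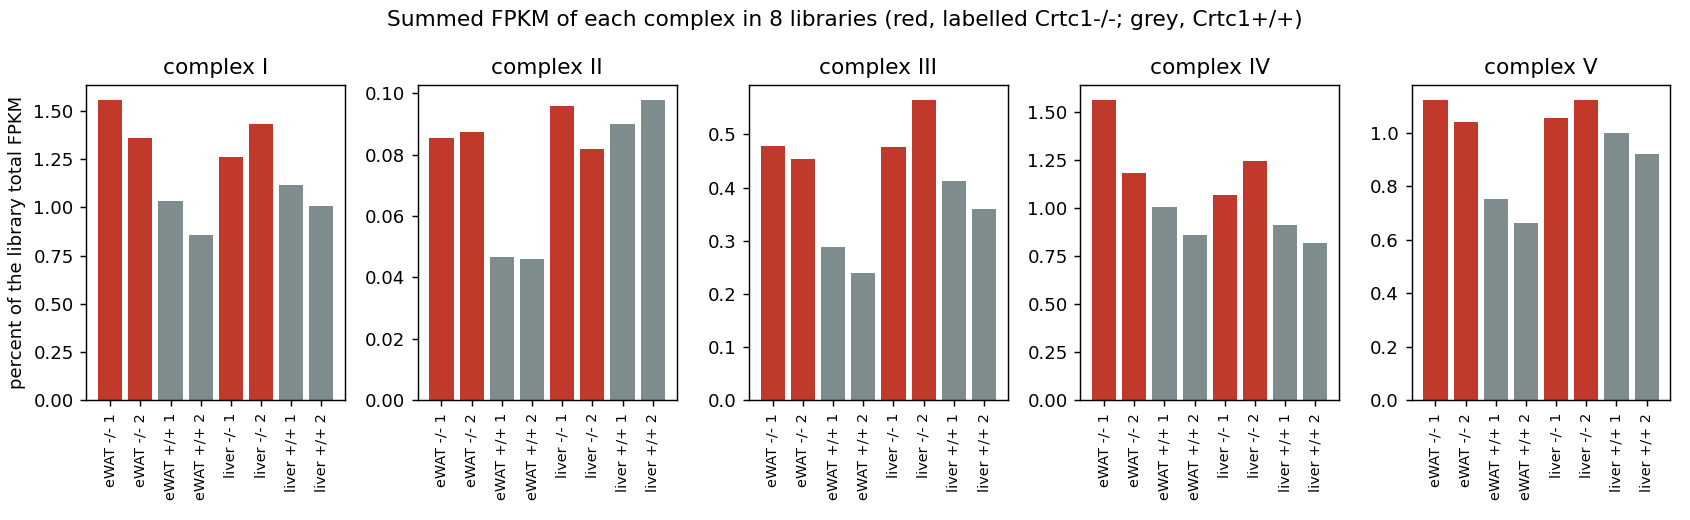
Summed FPKM of the nuclear-encoded subunits of each complex as a percent of the library's total FPKM, 1 bar per library, red for libraries labelled Crtc1-/- and grey for Crtc1+/+. Complex II is at 0.0853% and 0.0875% in the eWAT libraries labelled Crtc1-/- against 0.0467% and 0.0459% in Crtc1+/+, and it is the complex whose liver groups overlap.

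In eWAT, 86 of the 89 subunits passed the filter on low counts and were tested, and 78 had a log2 fold change above 0 in libraries labelled Crtc1-/- against Crtc1+/+ (48.5% of all genes tested were above 0). Their median log2 fold change was 0.82, against -0.05 over all genes. By edgeR's quasi-likelihood test at an adjusted p under 0.05, 3 members were higher (background 6.65% of all genes) and none was lower (background 5.54%). The 3 members make up 3.49% of those tested, below the share of all genes. At an unadjusted p under 0.05, 38 members were higher (background 16.2%) and 0 were lower (background 17.1%). Both libraries labelled Crtc1-/- exceeded both Crtc1+/+ libraries for 76 members (background 31.3%), and lay below both for Cox7a2l and Atp5s (background 35.4%). Replicate 2 of the libraries labelled Crtc1-/- was the one that held the hepatocyte markers. Without replicate 2 the median was 0.69 and 5 members were called higher (background 7.01%), and without replicate 1 10 were (background 9.84%), both in fits where that group is 1 library. Without Crtc1+/+ replicate 1 the median was 1.05, and without Crtc1+/+ replicate 2 it was 0.67. In these fits edgeR called no gene, subunit or other. With all 4 libraries DESeq2 called 36 members, all higher (background 15.3%). As these are 2 libraries a group, the p-values measure the spread between these mice only. The 8 members below 0 were Ndufa1, Ndufv2, Cox6b2, Cox6c, Cox7a2l, Cox8c, Atp5g1 and Atp5s.

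In liver, 84 subunits were tested and 70 had a log2 fold change above 0 (50.3% of all genes tested). The median was 0.46, against 0.00 over all genes. No member passed at an adjusted p under 0.05 in either direction by edgeR (background 0.0598% higher and 0.0256% lower), while 6 passed by DESeq2, all higher (background 1.9%). At an unadjusted p under 0.05 by edgeR, 27 were higher (background 9.73%) and 2 were lower, Sdhd and Atp5a1 (background 7.6%). The groups did not overlap for 62 members that were higher (background 25.8%) and 10 that were lower (background 26.4%). Leaving out replicate 1 of the libraries labelled Crtc1-/- gave 23 members higher (background 6.92%) and 3 lower (background 5.59%), in a fit where that group is 1 library and the spread comes from the Crtc1+/+ pair alone. Leaving out replicate 2 gave 1 higher (background 1.11%).

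**Figure D2:**
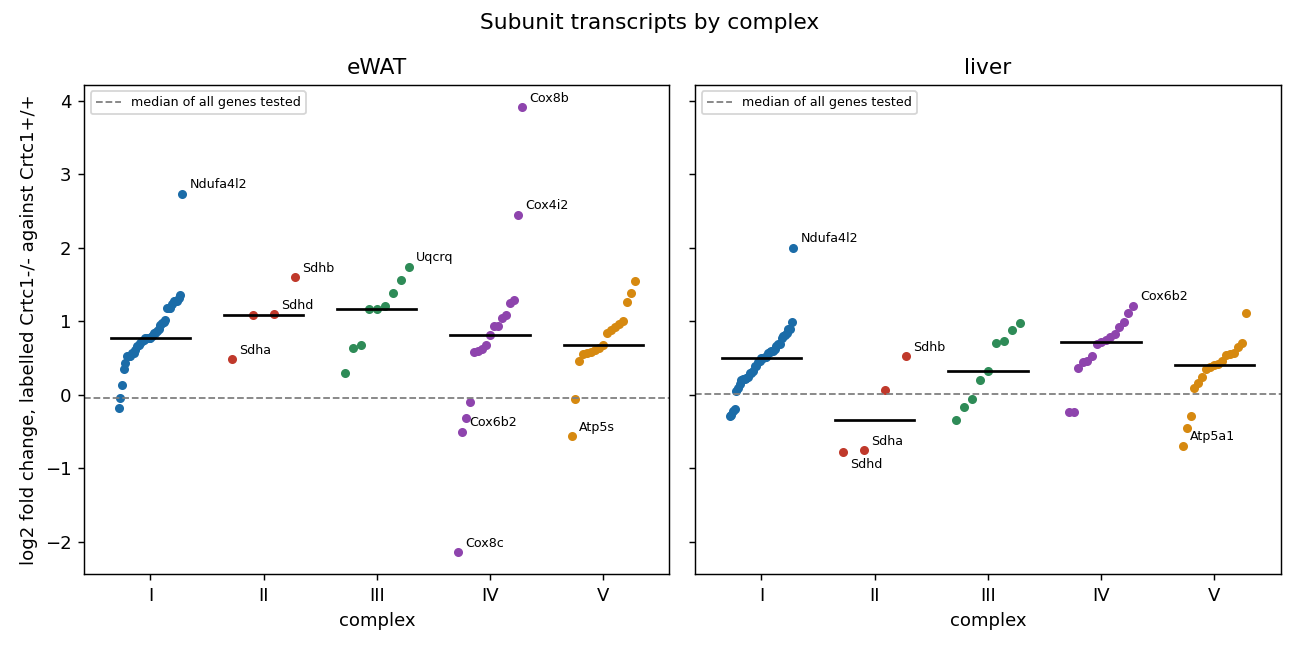
Log2 fold change of each tested subunit, libraries labelled Crtc1-/- against Crtc1+/+, by complex in eWAT (left) and liver (right). Each point is 1 gene, black bars are medians of a complex and the dashed line is the median of all genes tested. Medians lie between 0.67 and 1.17 for the 5 complexes in eWAT, and at -0.35 for complex II and between 0.32 and 0.72 for the others in liver.

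Complex I, the NADH dehydrogenase, had a median log2 fold change of 0.77 in eWAT, with 37 of 39 members above 0 and 18 higher at an unadjusted p under 0.05. Ndufs5, an accessory subunit of the membrane arm whose promoter carries a single NRF1 match, measured 125 and 118 CPM in the eWAT libraries labelled Crtc1-/- and 54.4 and 43.0 CPM in the Crtc1+/+ libraries. Its log2 fold change was 1.32 ± 0.28 (SE, n = 2 against 2, edgeR adjusted p = 0.0459), and without replicate 2 of the libraries labelled Crtc1-/- it was 1.34 with an adjusted p of 0.0529 by edgeR. Over the 12 other settings the adjusted p of Ndufs5 ran from 0.000265 to 0.326, so the call rests on the setting. In liver Ndufs5 measured 67.8 and 84.3 against 51.6 and 49.1 CPM, a log2 fold change of 0.60 ± 0.25 (edgeR adjusted p = 0.27).

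Among the catalytic core of complex I, Ndufv1, which binds the flavin that accepts electrons from NADH, measured 176 and 163 CPM in the eWAT libraries labelled Crtc1-/- and 80.9 and 68.6 CPM in Crtc1+/+. Its log2 fold change was 1.18 ± 0.27 (edgeR adjusted p = 0.0555). The liver values of Ndufv1, 157 and 121 against 178 and 161 CPM, lay the other way without overlap, at -0.28 ± 0.26 (edgeR adjusted p = 0.591). Ndufs1, the largest core subunit of the NADH arm, measured 43.5 and 61.7 against 30.7 and 40.3 CPM in eWAT. The lowest of complex I in eWAT was Ndufa1, a small membrane-arm subunit, at 80.2 and 71.4 against 96.3 and 76.3 CPM, where the groups overlapped and the log2 fold change was -0.19 ± 0.28 (edgeR adjusted p = 0.656).

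Complex II, succinate dehydrogenase, is the enzyme that the chain shares with the citrate cycle, and all 4 of its subunits were tested in both tissues. In eWAT all 4 were above 0, with a median of 1.09. Sdhb, the iron-sulfur subunit, measured 153 and 260 CPM in libraries labelled Crtc1-/- and 81.3 and 55.4 CPM in Crtc1+/+, a log2 fold change of 1.59 ± 0.41 (edgeR adjusted p = 0.0664). Sdha, the flavoprotein that oxidizes succinate, had the smallest difference, at 306 and 287 against 197 and 228 CPM (0.48 ± 0.30, edgeR adjusted p = 0.3). Sdhd, a membrane anchor named after its values were seen, measured 120 and 160 against 63.7 and 67.7 CPM (1.09 ± 0.29, edgeR adjusted p = 0.072). In liver, the median of the 4 was -0.35. Sdha was at 213 and 107 CPM in libraries labelled Crtc1-/- against 257 and 282 CPM, and Sdhd at 112 and 66.1 against 146 and 160 CPM. Replicate 2 was the lower of the pair for both genes, and neither overlapped with Crtc1+/+. Their liver log2 fold changes were -0.76 ± 0.34 for Sdha (edgeR adjusted p = 0.288) and -0.78 ± 0.30 for Sdhd (edgeR adjusted p = 0.255). Sdhb measured 315 and 328 against 222 and 225 CPM in liver, the opposite side. The liver median of complex II was -0.09 without replicate 2 of the libraries labelled Crtc1-/- and -0.63 without replicate 1.

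Complex III, which hands electrons from ubiquinol to cytochrome c, had the highest eWAT median, 1.17, with all 9 members above 0 and 6 higher at an unadjusted p under 0.05. Uqcr10, a small accessory subunit, measured 192 and 189 CPM in the eWAT libraries labelled Crtc1-/- and 78.4 and 51.3 CPM in Crtc1+/+. It was the member of complex III that passed the test, with a log2 fold change of 1.55 ± 0.33 (edgeR adjusted p = 0.047, from 0.00028 to 0.32 over the 12 other settings). In liver it was at 161 and 195 against 130 and 88.2 CPM (0.70 ± 0.28, edgeR adjusted p = 0.259). Uqcrq, another small accessory subunit, had the largest eWAT difference of the complex but also the widest spread, at 353 and 639 against 176 and 121 CPM (1.74 ± 0.45, edgeR adjusted p = 0.0694). The higher library was replicate 2, and in liver Uqcrq was at 665 and 934 against 507 and 364 CPM.

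Cyc1, cytochrome c1, an electron-carrying subunit of complex III, measured 151 and 216 against 78.0 and 62.2 CPM in eWAT (1.39 ± 0.33, edgeR adjusted p = 0.0586) and 247 and 212 against 253 and 224 CPM in liver, where the groups overlapped. Uqcrfs1, the Rieske iron-sulfur protein, measured 114 and 170 against 59.4 and 67.5 CPM in eWAT and 128 and 128 against 137 and 151 CPM in liver. Uqcrc1, a core protein of the matrix side, was at 351 and 426 against 193 and 143 CPM in eWAT (1.21 ± 0.34, edgeR adjusted p = 0.0808). Its partner core protein Uqcrc2 had the smallest difference of the complex, at 156 and 186 against 136 and 142 CPM (0.30 ± 0.28, edgeR adjusted p = 0.482), and its sign changed with library-size scaling (-0.024) and on the FPKM scale (-0.14).

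Complex V, the ATP synthase, had the smallest eWAT median, 0.67, with 15 of 17 members above 0. Atp5b, the catalytic beta subunit, measured 2025 and 1789 CPM in the eWAT pair labelled Crtc1-/- and 668 and 635 CPM in Crtc1+/+. Its log2 fold change was 1.55 ± 0.40 (edgeR adjusted p = 0.0688). In liver Atp5b lay the other way without overlap, at 1317 and 991 against 1607 and 1561 CPM (-0.46 ± 0.26, edgeR adjusted p = 0.385). Atp5a1, the alpha subunit that alternates with beta in the catalytic head, measured 710 and 767 against 487 and 500 CPM in eWAT and 743 and 534 against 1013 and 1050 CPM in liver. Its liver log2 fold change was -0.69 ± 0.27 (edgeR adjusted p = 0.25). Atp5g1 encodes the c-ring subunit, as do other Atp5g genes, and its libraries labelled Crtc1-/- were far apart in eWAT, at 131 and 390 CPM around Crtc1+/+ values of 291 and 251 CPM. The lower of these was replicate 1, so the log2 fold change of -0.06 was -1.08 without replicate 2 and 0.53 without replicate 1. Atp5s, a coupling factor kept by its symbol, was at 5.72 and 4.44 against 6.94 and 8.09 CPM in eWAT (-0.56 ± 0.47, edgeR adjusted p = 0.427).

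**Figure D3:**
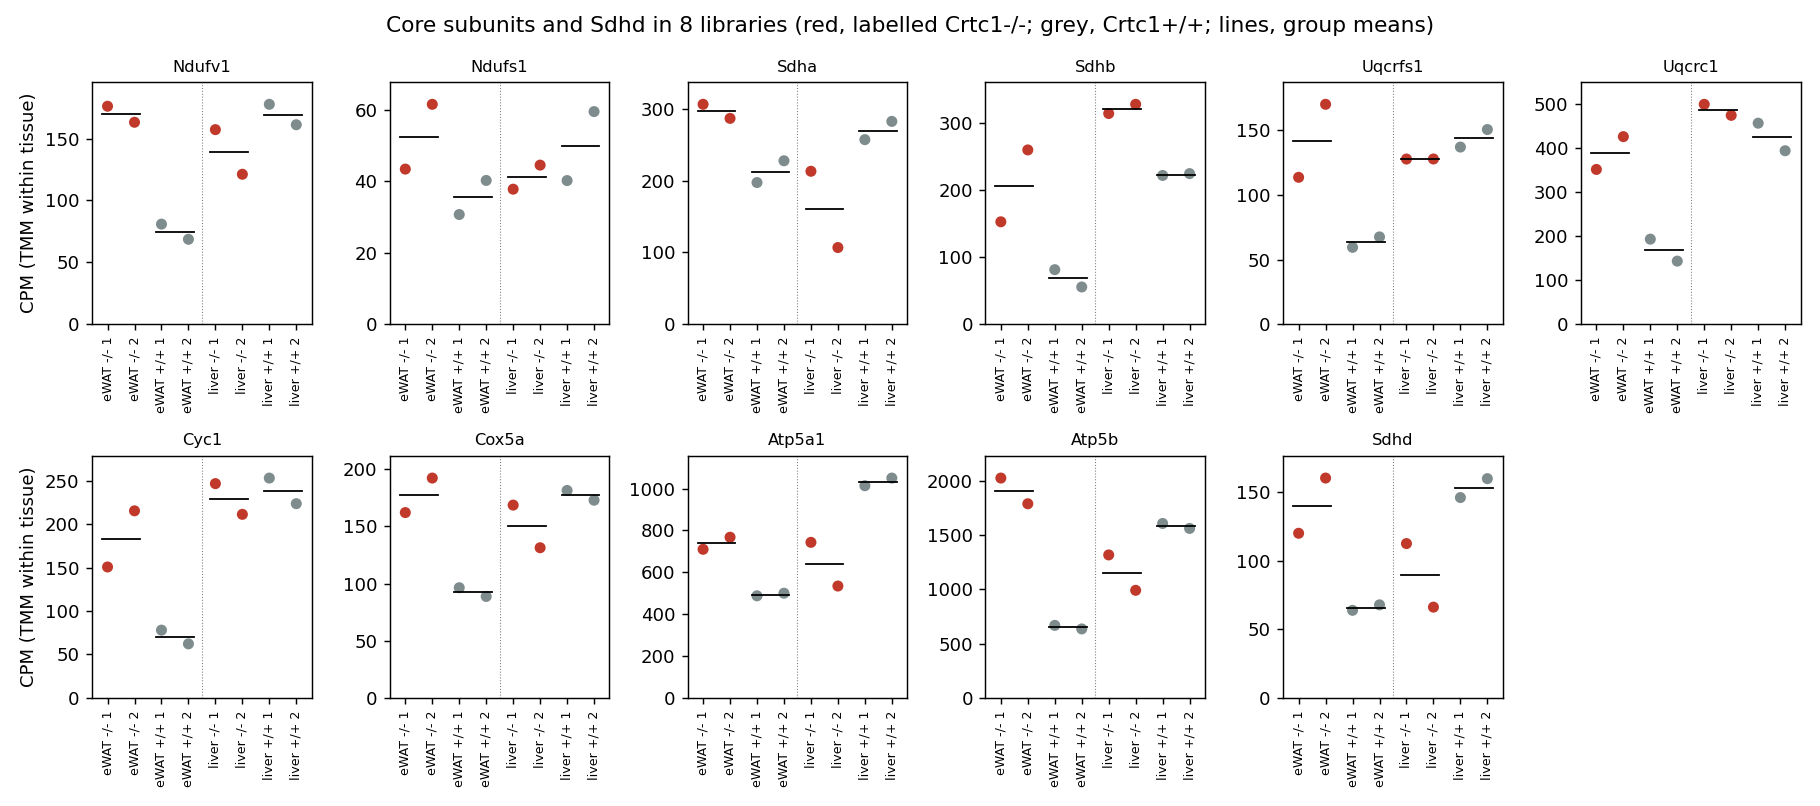
CPM of 10 named core subunits and of Sdhd in the 8 libraries, scaled by TMM within a tissue, with red points for libraries labelled Crtc1-/-, grey points for Crtc1+/+ and lines at group means. Sdhd runs at 120 and 160 against 63.7 and 67.7 CPM in eWAT, and at 112 and 66.1 against 146 and 160 CPM in liver.

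Of 10 catalytic or core subunits named with earlier results known (Ndufv1, Ndufs1, Sdha, Sdhb, Uqcrfs1, Uqcrc1, Cyc1, Cox5a, Atp5a1 and Atp5b), liver log2 fold changes were above 0 for Sdhb and Uqcrc1 and below 0 for the others. These signs describe the named genes only, since the list leaves out other core subunits of complex I that lay above 0 in liver: Ndufs3 was at 0.39, Ndufs7 at 0.69, Ndufs8 at 0.77 and Ndufv2 at 0.20. Uqcrc2, also outside it, was at -0.35. In eWAT the 10 named subunits were above 0, while Ndufv2 was at -0.05. The liver sign of Ndufs1 and Cyc1 depended on a library left out, running from -0.54 to 0.024 and from -0.16 to 0.042.

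Complex IV, cytochrome c oxidase, is built from single-form and paired-isoform subunits. Cox4i1, the largest nuclear-encoded subunit, was at 1016 and 1041 CPM in libraries labelled Crtc1-/- and 785 and 587 CPM in Crtc1+/+ (0.58 ± 0.38, edgeR adjusted p = 0.324). Cox6a1 was at 649 and 609 against 311 and 205 CPM (1.29 ± 0.38, edgeR adjusted p = 0.0882), and Cox8a at 1030 and 808 against 527 and 438 CPM (0.93 ± 0.37, edgeR adjusted p = 0.16). These groups did not overlap, and in liver the same genes were at log2 fold changes of 0.36, 0.52 and 0.46. Cox6b1, which bridges the dimer, was at 448 and 456 against 239 and 186 CPM in eWAT, Cox7a2 at 213 and 192 against 144 and 108 CPM, and Cox7b at 110 and 128 against 80.4 and 78.1 CPM. Cox5a, a single-form subunit on the matrix side, was at 162 and 192 against 96.4 and 88.7 CPM in eWAT and at 169 and 131 against 182 and 173 CPM in liver. Cox7a2l, a factor for the assembly of supercomplexes, lay lower in both eWAT libraries labelled Crtc1-/-, at 238 and 196 against 273 and 271 CPM (-0.32 ± 0.30, edgeR adjusted p = 0.472).

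Of the tissue-restricted isoforms, Cox8b and Cox7a1 are the forms of heart and skeletal muscle that brown fat also uses, Cox6a2 is a heart and muscle form, and Cox4i2 is known from lung and pericytes. Cox8b was at 57.5 and 15.1 CPM in the eWAT libraries labelled Crtc1-/- and at 3.42 and 1.40 CPM in Crtc1+/+, a log2 fold change of 3.91 ± 0.87 (edgeR adjusted p = 0.0523, from 2.47e-05 to 0.311 over the 12 other settings). It was the largest fold change of any tested member in eWAT. Without replicate 2 of the libraries labelled Crtc1-/- it was 4.56 and without replicate 1 2.66. As a share of Cox8b and Cox8a FPKM together, Cox8b made up 9.26% and 3.23% against 1.18% and 0.589%, and at most 0.488% in any liver library. The raw counts behind these values were 1047, 218, 71 and 27. Cox7a1 was at 11.5 and 5.83 against 5.01 and 2.28 CPM in eWAT and made up 12.9% and 7.46% of the FPKM of its pair with Cox7a2, against 8.73% and 5.57%. These shares overlapped between the groups. Its log2 fold change was 1.25 ± 0.66 (edgeR adjusted p = 0.244). Cox6a2 stayed under 1% of its pair with Cox6a1 in all 8 libraries, with 2.86 and 4.72 against 3.03 and 1.87 CPM in eWAT. In liver its counts were 103 and 64 against 90 and 4, so its liver log2 fold change of 0.92 was 4.39 without replicate 1 of Crtc1+/+ and -0.025 without replicate 2.

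Cox4i2 was at 15.8 and 7.01 CPM in the eWAT libraries labelled Crtc1-/- and 2.50 and 1.66 CPM in Crtc1+/+ (2.45 ± 0.63, edgeR adjusted p = 0.0692). Without replicate 2 of the libraries labelled Crtc1-/- the log2 fold change was 2.90 and without replicate 1 1.76. Cox4i2 made up 1.55% and 0.686% of its pair with Cox4i1 against 0.321% and 0.272%. In liver its counts were 6, 5, 0 and 1, too few to be tested. Ndufa4l2, the isoform of the complex IV-associated Ndufa4 that hypoxia is known to induce, passed the test, at 61.2 and 26.3 against 7.56 and 5.60 CPM with a log2 fold change of 2.73 ± 0.54 (edgeR adjusted p = 0.0404, from 1.8e-05 to 0.296 over the 12 other settings). Without replicate 2 of the libraries labelled Crtc1-/- the log2 fold change was 3.19 and without replicate 1 2.01. Ndufa4l2 made up 6.93% and 3.03% of its pair with Ndufa4, against 1.98% and 1.67%. In liver Ndufa4l2 was at 4.09 and 1.52 against 0.719 and 0.682 CPM, also without overlap (2.0 ± 0.56, edgeR adjusted p = 0.163). Ndufa4, the ubiquitous form, measured 349 and 365 against 158 and 138 CPM in eWAT (1.27 ± 0.30, edgeR adjusted p = 0.0578). For Cox8b, Cox4i2 and Ndufa4l2 alike, replicate 1 of the eWAT libraries labelled Crtc1-/- was the higher of the pair. Replicate 1 was also the higher in the adipocyte markers, at 4.82% against 2.34% of counts, and in the 8 endothelial markers, at 0.435% against 0.252%. All 8 endothelial markers were called higher in eWAT, with 0.0322% and 0.0324% of counts in Crtc1+/+. The 9 skeletal muscle markers took 0.101% and 0.0799% of eWAT counts against 0.0623% and 0.0388%, and in liver 0.0789% and 0.057% against 0.0626% and 0.000981%. The 8 brown adipocyte markers took 0.0107% and 0.0568% of eWAT counts in libraries labelled Crtc1-/- against 0.00732% and 0.00276%, and 0.0901% to 0.156% in liver. Of the 5 that could be tested in eWAT, 4 were above 0, with a median of 2.20, and 1 was called higher, the potassium channel gene Kcnk3, at 77.2 and 71.2 against 13.1 and 11.4 CPM (edgeR adjusted p = 0.0177). The eWAT values of Ucp1 were 0.44 and 0 CPM under the Crtc1-/- label and 0.145 and 0.104 CPM in Crtc1+/+, and Zic1 was at 0 in all 8 libraries. The part of any of these in the isoform values was not tested.

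The isoforms known from testis ran the other way, through 1 library. Cox8c had 37 and 6 counts in the eWAT libraries labelled Crtc1-/- and 215 and 11 in Crtc1+/+, and 0 in every liver library, and Cox7b2 had 3, 0, 61 and 3 counts and was also at 0 in liver. Cox6b2 had 159 and 82 counts against 343 and 76. In each case Crtc1+/+ replicate 1 was the highest library, and 8 testis and sperm markers took 0.128% of its counts, against 0.0519% in replicate 2 and 0.0116% and 0.00131% in libraries labelled Crtc1-/-. The log2 fold change of Cox8c, -2.14 ± 1.5 (edgeR adjusted p = 0.354), was 1.05 without that library, and that of Cox6b2, -0.50 ± 0.77 (edgeR adjusted p = 0.669), was 0.86 without it. The part of the testis markers in these values was not tested.

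**Figure D4:**
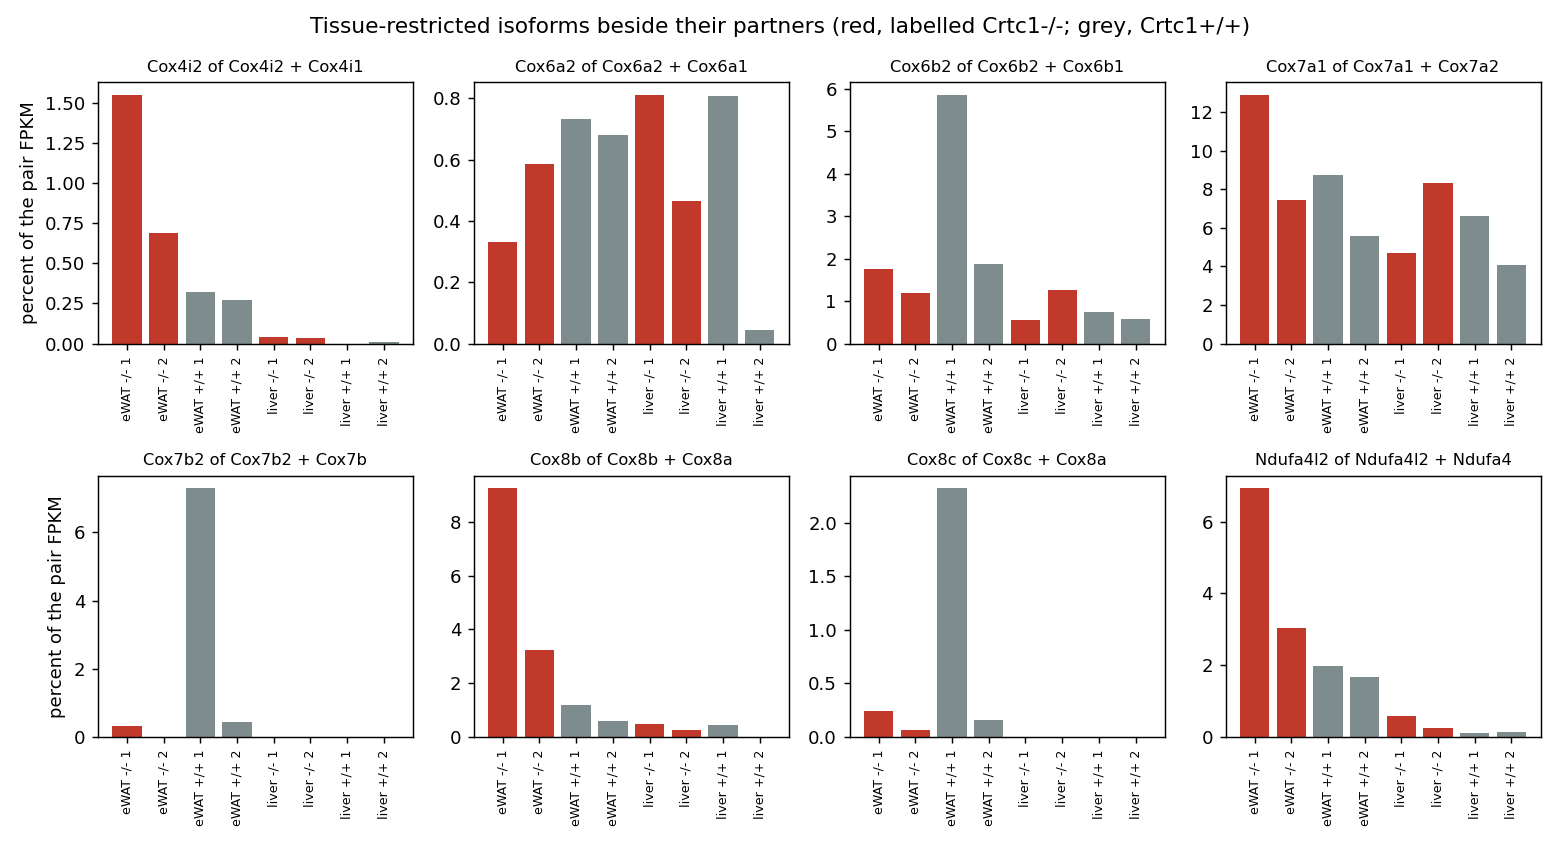
FPKM of each tissue-restricted isoform as a percent of the summed FPKM of the isoform and its ubiquitous partner, 1 bar per library, red for libraries labelled Crtc1-/- and grey for Crtc1+/+, each panel with its own axis from 0. Cox8b, Cox4i2 and Ndufa4l2 lie higher in both eWAT libraries labelled Crtc1-/- than in both Crtc1+/+ libraries, and Cox7b2 and Cox8c peak in Crtc1+/+ replicate 1 at 7.3% and 2.32%.

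In liver the fold changes of the subunits followed the length of the transcripts. The length was taken from the ratio of counts to FPKM in the deposited tables, and this relation was chosen after the data were seen. Over the 84 members Spearman's coefficient between log2 fold change and length was -0.61, a description across genes that share the same libraries, against -0.04 over all genes. The 38 members under 500 nt had a median of 0.66, and all 233 tested genes of that length, these members among them, had 0.63. At 500 to 1000 nt the medians were 0.45 for 25 members and 0.25 for 904 genes, and at 1000 nt or more -0.06 for 21 members and -0.03 for 10321 genes. The short subunits thus lay near the median of all short transcripts tested, of which they are a part. The 14 members below 0 in liver had a median length of 1468 nt, against 493 nt for the 70 above 0.

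The eWAT values did not have this form. The same coefficient was -0.09 over the 86 members and -0.11 over all genes, and the medians of the members were 0.77 under 500 nt, 0.91 at 500 to 1000 nt and 0.70 at 1000 nt or more. All genes of the same lengths had medians of 0.01, 0.20 and -0.04. The spread of all genes was wide in eWAT, with an SD of log2 fold changes of 2.14 against 0.70 over the members.

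**Figure D5:**
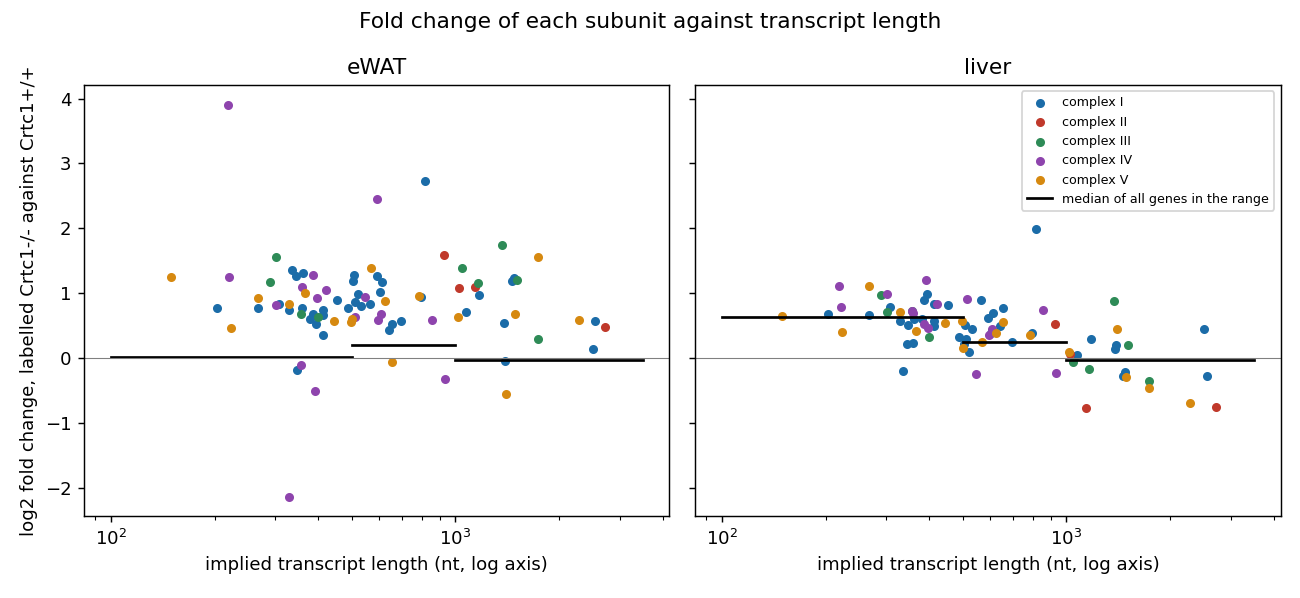
Log2 fold change of each tested subunit, libraries labelled Crtc1-/- against Crtc1+/+, against transcript length in nt (log axis) in eWAT and liver, with points coloured by complex and black bars at the median of all genes tested in each length range. In liver the members lie near the bars, at 0.66 against 0.63 under 500 nt, and in eWAT above them, at 0.77 against 0.01.

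Whether the difference between the labelled genotypes differed between the tissues was tested as an interaction over the 8 libraries. Of the 86 members tested, 0 passed at an adjusted p under 0.05 by edgeR (background 3.78% higher and 3.16% lower). By DESeq2 8 passed, all higher in eWAT (background 8.43%), and by edgeR 3 passed, also higher, without replicate 1 of the eWAT libraries labelled Crtc1-/- (background 8.32%). At an unadjusted p under 0.05 by edgeR, 8 members had a larger difference in eWAT, among them Ndufb4c, Ndufv1, Sdhd, Cyc1, Uqcrfs1, Cox5a and Atp5b (background 13.1%), and none a smaller (background 13.8%). These 8 make up 9.3% of the members tested, below the share of all genes. The median was 0.36 over the members and -0.21 over all genes, and 59 members were above 0 (44.4% of all genes). By complex it was 0.30 for complex I, 1.09 for complex II, 0.77 for complex III, 0.15 for complex IV and 0.43 for complex V. Atp5b had an interaction of 1.92 ± 0.59 (edgeR adjusted p = 0.0968), Sdhd of 1.80 ± 0.51 (edgeR adjusted p = 0.0808) and Ndufv1 of 1.38 ± 0.41 (edgeR adjusted p = 0.0887). No difference between the tissues passed the test for a subunit, with the libraries labelled Crtc1-/- and Crtc1+/+ of both tissues in the fit. This fit and those between tissues took all 8 libraries as independent, although tissues of the same mouse may be among them.

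With TMM scaling, most subunits were lower in eWAT than in liver. In Crtc1+/+, 69 of 86 members were lower in eWAT (background 19.8%) and 3 were higher (background 35%), and in libraries labelled Crtc1-/- 53 were lower (background 8.89%) and 2 were higher (background 18.9%), by edgeR at an adjusted p under 0.05. Of the members called higher, Cox4i2 and Cox8c failed the filter in liver and entered this fit through eWAT, where they are high, so their calls are no support for a difference. The median log2 difference was -1.43 in Crtc1+/+, where all genes had 0.61, and -1.12 in libraries labelled Crtc1-/-, where all genes had 0.20. These sizes depended on the scale: with library-size scaling the medians of the members were -0.026 and -0.016 beside 2.0 and 1.33 over all genes. In Crtc1+/+ that scaling called 9 members higher (background 68.7%) and 11 lower (background 7.21%). The calls in both labelled genotypes depended on the library left out, and in libraries labelled Crtc1-/- they fell as far as none. The share of all genes called moved with the library left out as well. Leaving out 1 library gave medians of the members from -1.68 to -1.25 in Crtc1+/+. In libraries labelled Crtc1-/- these medians ran from -1.32 to -0.96. All 4 members of complex II and all 9 of complex III were called lower in Crtc1+/+, as were 33 of 39 of complex I, 15 of 17 of complex V and 8 of 17 of complex IV.

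The lowest of the called members in Crtc1+/+ eWAT were Cyc1 (-2.98 ± 0.38, edgeR adjusted p = 0.00154), Sdhb (-2.92 ± 0.44) and Uqcrq (-2.76 ± 0.52). In the libraries labelled Crtc1-/- they were Atp5g1 (-2.19 ± 0.60, edgeR adjusted p = 0.035), Uqcrq (-1.95 ± 0.51) and Sdhb (-1.90 ± 0.42). The value of Atp5g1, whose eWAT libraries labelled Crtc1-/- were far apart, ran from -3.36 to -1.20 over the 15 other settings. Of the members called higher in Crtc1+/+ eWAT, only Ndufa4l2 also passed the filter in liver. Ndufa4l2 was higher by 2.01 ± 0.59 (edgeR adjusted p = 0.0258), and by 2.62 ± 0.55 in libraries labelled Crtc1-/- (edgeR adjusted p = 0.0163). Cox4i2 was higher by 3.88 ± 0.72 in libraries labelled Crtc1-/-, and in Crtc1+/+ its 84 eWAT counts stood against 1 liver count, a ratio of 34.8 with an exact 95% counting interval from 6.08 to 1390. Cox8c was at 0 in every liver library, and its scaled counts in Crtc1+/+ eWAT lay 15.1-fold above a floor of 3 counts per liver library. Of its 226 counts there, 215 came from replicate 1, the library with the testis markers, and the 11 of replicate 2 alone gave at least 1.53-fold. Setting Cox8c at that bound left the median of the members at -1.43. The counting interval and the floor cover counting error only.

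Per transcript length, the order of the subunits was much the same in every library. Cox8a had the highest mean FPKM of the 89 members in both eWAT groups and ranked 3 in both liver groups, and Cox4i1 ranked 2 in both eWAT groups and 1 in both liver groups. Cox6a1 ranked 3 and 6 in eWAT labelled Crtc1-/- and Crtc1+/+ and 2 in both liver groups. Atp5b moved most among these, ranking 7 and 18 in eWAT and 17 and 4 in liver, with FPKM of 1149 and 837 against 437 and 403 in eWAT and 763 and 586 against 917 and 881 in liver. Across 83 members Spearman's coefficient of log2 FPKM ran from 0.965 to 0.991 between libraries of the same group, and from 0.92 to 0.981 between genotypes of a tissue. Replicate 2 of eWAT labelled Crtc1-/-, the library with hepatocyte markers, had coefficients of 0.953 to 0.979 with the liver libraries, while the Crtc1+/+ eWAT libraries had 0.859 to 0.908. These are descriptions over genes that share libraries.

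Other genes of mitochondrial respiration were counted from lists by role, to be read beside the 48.5% of all genes above 0 and 6.65% called higher in eWAT, and the 50.3% above 0 in liver. All 13 citrate cycle genes were above 0 in eWAT, with a median of 0.82 and none called, while 3 of 13 were above 0 in liver, with a median of -0.30. Ogdh, a subunit of the oxoglutarate dehydrogenase, had a log2 fold change of 0.72 in eWAT and -0.37 in liver. Of 45 assembly factors tested, 35 were above 0 in eWAT with a median of 0.45, and 1 was called, a smaller share than of all genes: Cox19, at 1.70 (edgeR adjusted p = 0.047). In liver 23 of the 45 were above 0, with a median of 0.03. Of 15 regulators of mitochondrial biogenesis 9 were above 0 in eWAT with a median of 0.18, and the mitochondrial DNA polymerase Polg was called, at 1.35 (edgeR adjusted p = 0.042). In liver 4 of 14 regulators were above 0. The 7 electron carriers and entry enzymes had a median of 1.15 in eWAT and -0.15 in liver, with Etfb, a subunit of the electron transfer flavoprotein, at 2.09 in eWAT (edgeR adjusted p = 0.057). Of 9 carriers and channels of the mitochondrial membranes 7 were above 0 in eWAT with a median of 0.33, among them Slc25a3, the phosphate carrier, at 0.61 and Slc25a5, an adenine nucleotide carrier, at 0.33, and Ucp3 was called at 3.66 (edgeR adjusted p = 0.028). None of these lists had a member called in liver.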

How the data were processed

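Gene counts and FPKM of 8 libraries were used, 2 per tissue and labelled genotype. The estimated counts per gene were deposited by the authors, with 5.44% to 9.98% of values not whole, and were rounded here. The FPKM values, also made by the authors, are counts scaled by length and depth. The submitters' processing notes name HISAT, Bowtie2 and GRCm38.p6, and the tool that counted is not given in the sources used here. Paralogous subunits and pseudogenes can share reads, so single members of such families are uncertain.

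Counts were tested with edgeR 4.0.16 in R 4.3.3 (TMM scaling, filterByExpr, quasi-likelihood test, Benjamini-Hochberg adjustment over all genes tested), within each tissue for genotype and over 8 libraries for the interaction and the tissue contrasts. CPM are scaled by TMM within a tissue. The scripts were tested on simulated data. DESeq2 1.42.0, limma 3.58.1 on quantile-normalized log2(FPKM + 1) or log2(FPKM + 0.1), other scalings, no filter, the replicate block and leaving out each library were alternatives. Fold changes on the FPKM scale understate those of low genes. The study's own tool was limma on normalized values, which is why it is among the alternatives. Figures used matplotlib 3.10.9.

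Members, lists and tests were chosen with earlier results of these data known. Named were the paired isoforms, core subunits, members called, the highest and lowest of each complex in eWAT, the 3 highest and lowest called between tissues, and of the other lists the most abundant members and any called. Sdhd, Atp5g3, Ndufb4c and members listed for their sign were named after their values were seen, and implied lengths, promoter motifs and counts per library were chosen after the data were seen. Ndufa11b, Ndufb4b and Cox7b2 failed the filter in every test, and Cox4i2 and Cox8c in liver. Ndufa4, counted with complex I by its symbol, is now placed with complex IV. Some genes that this rule names are not reported here.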

Additional observations from a re-analysis of the deposited data

How the results depend on the processing

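Of 1326 recomputed values, 1126 kept their direction and side of the threshold or moved by less than the replicate spread, 66 lost the threshold, 67 gained it, 51 moved further and 16 changed sign. The cause of these changes was not tested. In eWAT, where edgeR called 3 members higher (background 6.65%), DESeq2 called 36 (background 15.3%) and upper-quartile scaling 0 (background 4.83%). Library-size scaling called 0 (background 3.81%), no expression filter 10 (background 6.21%) and a fit of all 8 libraries 17 (background 11.5%). Limma on log2(FPKM + 0.1) called 0 (background 7.39%). None of these called a member lower. The median of the members was 0.45 with limma at either pseudocount, and leaving out 1 library gave medians of 0.67 to 1.05. Without either Crtc1+/+ library edgeR called no gene, subunit or other. Library-size scaling moved the eWAT median of all genes to -0.35 and that of the members to 0.50. In liver DESeq2 called 6 against 0, the median was 0.55 with upper-quartile scaling and 0.34 with limma at either pseudocount, and leaving out 1 library gave 0 to 26 calls and medians of 0.31 to 0.57. For the interaction, DESeq2 called 8, limma 10 on log2(FPKM + 1) and 1 on log2(FPKM + 0.1), against 0. Its median was 0.068 with library-size scaling, and leaving out 1 library gave 0 to 3 calls and medians of 0.20 to 0.56. Between tissues in Crtc1+/+, library-size scaling called 20 and limma 35 and 29 of the members, against 72, with medians of -0.026, -0.40 and -0.41, and leaving out 1 library gave 34 to 76 calls (34 without eWAT Crtc1+/+ replicate 2) and medians of -1.68 to -1.25. In the libraries labelled Crtc1-/- the counts were 4, 17 and 4 against 55, with medians of -0.016, -0.30 and -0.30, and leaving out 1 library gave 0 to 54 calls (0 without liver replicate 2) and medians of -1.32 to -0.96.

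Signs changed for Ndufa4 in liver with limma (-0.035 at either pseudocount), Cyc1 in liver with upper-quartile scaling (0.027), Uqcrc2 in eWAT with library-size scaling (-0.024) and limma (-0.14 and -0.15), and Atp5g1 in eWAT with no expression filter (0.072). With 1 library left out, values ran from -0.025 to 4.39 for Cox6a2 in liver, -1.17 to 0.86 for Cox6b2 in eWAT, -0.75 to 0.15 for Cox7a2l in liver, -3.68 to 1.05 for Cox8c in eWAT, -0.54 to 0.024 for Ndufs1 in liver, -0.16 to 0.042 for Cyc1 in liver and -1.08 to 0.53 for Atp5g1 in eWAT.

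The labels number the replicates of every group 1 and 2 and do not say that a number marks a shared mouse, litter or batch, although by the study's methods liver and eWAT came from the same mice. Deviations of same-numbered libraries from their group means correlated at 0.0086 to 0.152. With the replicate block, edgeR called 0 members in eWAT, where it called no gene at all. In liver it called 0 (background 0.513% higher and 0.188% lower), and for the interaction 0 (background 2.97% in each direction). Between tissues 71 members were lower in Crtc1+/+ eWAT (background 19.8%) and 49 in eWAT labelled Crtc1-/- (background 9.89%). In each, 3 were higher (background 34.9% and 19.1%).

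With 2 libraries a group, a single library decides many calls. The depth of 16560085 counts or more leaves the abundant subunits well measured, while Cox4i2, Cox7b2 and Cox8c rest on few counts.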
